A study of Homo sapiens with 9 samples.

Results

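KIRREL3, PCDH7 and PCDH10 encode cell surface proteins that bind the same protein on a neighbouring cell, and the 3 genes were chosen by their array signals, which separated a knockdown of MED23 from one of ELK1. They are 3 of 19775 genes with a probe set of exactly 1 gene symbol, and every such probe set was taken, which gave 1 for KIRREL3, 5 for PCDH7 and 4 for PCDH10. The 9 Affymetrix arrays carry RNA of A549, a lung adenocarcinoma line of human origin, grown in medium with 10% FBS under 5% CO2 and not treated otherwise. In 3 samples (si-Med23) the cells carried RNA interference oligos A, B and C against MED23, in 3 (si-Elk1) oligos A, B and C against ELK1, and in 3 (si-Ctrl) a control oligo. The knockdown samples are described as a different cell line for each oligo, so their spread includes differences between oligos. The sources do not state whether the control samples came from separate cultures, so the p-values cover the spread among these samples alone, and that spread may be technical.

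KIRREL3 is a single-pass protein of the immunoglobulin superfamily, related to nephrin, that sits at contacts between cells and is best known from synapses in the mouse hippocampus. PCDH7 and PCDH10 are delta-protocadherins, members of the cadherin superfamily that bind between cells through their extracellular cadherin repeats. PCDH7 belongs to the delta-1 branch, whose cytoplasmic tail can bind protein phosphatase 1, and PCDH10 to the delta-2 branch, whose tail can bind NCKAP1 of the actin-regulating WAVE complex. In lung adenocarcinoma cells PCDH7 is known to act with the phosphatase inhibitor SET to raise ERK signalling, and PCDH10 is known as a gene silenced by promoter methylation in several carcinomas. MED23 belongs to the tail module of Mediator, through which DNA-bound factors reach RNA polymerase II. ELK1, a DNA-binding factor of the ETS family, is phosphorylated by ERK and in that form binds MED23.

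The promoters are shown because the 3 genes share a pattern across the arrays and ELK1 is a DNA-binding factor. RefSeq sequences of GRCh38.p14 were used, 250 bases before to 50 bases after the annotated start, and 2 of the 3 genes matched. The bases from the start onward are in capitals.
KIRREL3 (chr11:127003345-127003644, minus strand): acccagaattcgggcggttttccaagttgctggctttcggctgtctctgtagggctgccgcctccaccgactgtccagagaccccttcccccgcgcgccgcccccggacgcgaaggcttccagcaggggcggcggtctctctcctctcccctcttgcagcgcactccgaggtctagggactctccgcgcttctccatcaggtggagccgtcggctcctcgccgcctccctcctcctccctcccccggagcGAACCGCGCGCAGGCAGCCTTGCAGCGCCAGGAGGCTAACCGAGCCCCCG
PCDH7 (chr4:30720119-30720418, plus strand): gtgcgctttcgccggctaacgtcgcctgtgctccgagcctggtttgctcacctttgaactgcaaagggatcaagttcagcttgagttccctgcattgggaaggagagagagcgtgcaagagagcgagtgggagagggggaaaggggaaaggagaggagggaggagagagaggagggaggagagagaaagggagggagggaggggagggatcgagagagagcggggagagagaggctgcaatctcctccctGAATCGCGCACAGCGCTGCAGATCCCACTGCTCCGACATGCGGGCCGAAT
Neither window held the ETS letters CCGGAAG or the serum response element searched here on either strand. Of 35116 promoter windows of this length, 10.3% held the ETS letters and 0.0342% the serum response element. The GC content was 69.7% for KIRREL3 and 60.3% for PCDH7, against a median of 58.7% over all windows. The PCDH7 window has a run of 81 bases of A and G, a feature chosen after the sequence was seen, and 9 of the 35116 windows, this one included, have a run at least as long. These are descriptions of the letters and say nothing about binding.

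The median probe set signal of an array ranged from 64.9 to 88.2. Values are given as log2(signal + 1), where the signal is the deposited probe set intensity. A level of log2 6.05, the median over probe sets, is used below to mark dim signals. The targeted transcripts were low where the labels say: MED23 was at 6.79, 6.19 and 7.06 with si-Med23 oligos A, B and C, against 9.05 to 9.27 in si-Ctrl, and ELK1 at 7.07, 7.15 and 7.83 with si-Elk1 oligos A, B and C, against 9.29 to 9.61 in si-Ctrl. All 10 lung epithelial and A549 markers examined were above the dim level, whereas 4 of 12 markers of other cells were, namely CD3E, PECAM1, RBFOX3 and SNAP25. The summed signal of the 12 markers ranged from 1158 to 2166 in si-Med23, from 4383 to 4768 in si-Elk1 and from 1586 to 1860 in si-Ctrl, with 0 markers listed at 0 throughout a group. SNAP25, a protein of synaptic vesicle fusion, ranged from 268 to 536 in si-Med23, from 2619 to 2969 in si-Elk1 and from 404 to 502 in si-Ctrl, as linear signals. Its part in the si-Elk1 results below was not tested.

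In si-Elk1 the signals of all 3 genes lay below every si-Ctrl array and every si-Med23 array, while in si-Med23 they lay near or above the control level. KIRREL3 fell in si-Elk1 by the test, and PCDH7 and PCDH10 did not pass it. The si-Elk1 signals were under the dim level on 3 of 3 arrays for KIRREL3 and on 2 of 3 for PCDH7 and for PCDH10, so the sizes of these changes are uncertain. With dim signals raised to that level, the log2 changes against si-Ctrl were -2.42 for KIRREL3, -1.42 for PCDH7 and -1.11 for PCDH10. A bulk array cannot tell fewer cells that express a gene from less RNA per cell. The knockdown arrays chose the genes, so these values describe the choice and support nothing beyond it.

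**Figure D1:**
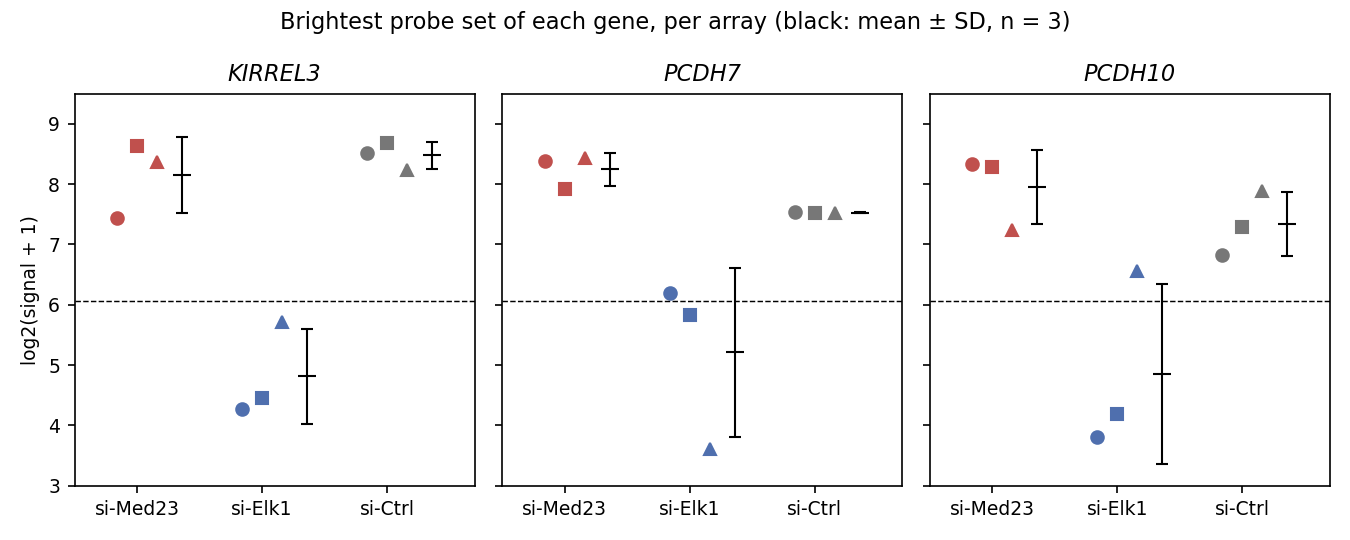
The log2(signal + 1) of the brightest probe set of KIRREL3, PCDH7 and PCDH10 on each array, with circles, squares and triangles for oligos A, B and C (replicates 1, 2 and 3 in si-Ctrl), black bars for the mean ± SD (n = 3) and a dashed line at the dim level of 6.05. In each panel the 3 si-Elk1 points lie below the other 6, and oligo C is the highest si-Elk1 point for KIRREL3 and PCDH10 and the lowest for PCDH7.

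The probe set of KIRREL3 gave log2 signals of 7.44, 8.63 and 8.37 with si-Med23 oligos A, B and C. It gave 4.27, 4.45 and 5.71 with si-Elk1 oligos A, B and C, and 8.52, 8.67 and 8.23 in si-Ctrl. All 3 si-Elk1 arrays were below the dim level, all others were well above it, and si-Med23 overlapped si-Ctrl. The log2 change in si-Elk1 relative to si-Ctrl was -3.66 ± 0.42 (SE; 3 arrays in each group; limma adjusted p = 0.00554 over all genes tested). Against si-Ctrl, si-Med23 differed by -0.33 ± 0.42, which did not pass (limma adjusted p = 0.55). The direction of that difference rests on oligo A, and without it the value was 0.025. Means were 8.14 ± 0.63 in si-Med23, 4.81 ± 0.79 in si-Elk1 and 8.47 ± 0.22 in si-Ctrl (SD, n = 3), and si-Med23 and si-Ctrl did not differ beyond their spread.

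The brightest PCDH7 probe set gave log2 signals of 8.38, 7.92 and 8.42 with the A, B and C oligos of si-Med23. The same probe set read 6.20, 5.83 and 3.61 with si-Elk1 oligos A, B and C, and 7.53, 7.51 and 7.52 in si-Ctrl. No group overlapped another, with si-Med23 on top, si-Ctrl between and si-Elk1 lowest. The change of -2.31 ± 0.57 in si-Elk1 relative to si-Ctrl (log2, SE; 3 arrays in each group) just missed the threshold (limma adjusted p = 0.0575). With dim signals raised to the level it was -1.42 and passed (limma adjusted p = 0.00198). Oligo C set both the size and the spread: without it the change was -1.51 and passed (limma adjusted p = 0.0202). The change did not pass without oligo A (-2.80, limma adjusted p = 0.0563) or without oligo B (-2.62, limma adjusted p = 0.0723). The si-Med23 value was higher than si-Ctrl by 0.72 ± 0.57, which did not pass in the fit of all arrays (limma adjusted p = 0.337). It passed without si-Elk1 oligo C (limma adjusted p = 0.0104). It also passed in a fit of the 6 si-Med23 and si-Ctrl arrays alone (limma adjusted p = 0.0133). In that fit the spread of the si-Elk1 arrays no longer enters, and the control arrays lie very close together. Averaged over all PCDH7 probe sets, the si-Med23 difference was 0.28 and did not pass (limma adjusted p = 0.55). Group means were 8.24 ± 0.28 in si-Med23, 5.21 ± 1.4 in si-Elk1 and 7.52 ± 0.0095 in si-Ctrl (SD, n = 3).

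The brightest PCDH10 probe set gave 8.32, 8.28 and 7.24 with si-Med23 oligos A, B and C. Its log2 signals with si-Elk1 oligos A, B and C were 3.81, 4.19 and 6.56, and in si-Ctrl they were 6.83, 7.29 and 7.89. Oligo C of si-Elk1 came close to the lowest control, whereas oligos A and B lay far below it, and si-Med23 overlapped si-Ctrl. Relative to si-Ctrl, si-Elk1 changed by -2.49 ± 0.67 (log2, SE; 3 arrays in each group), which did not pass (limma adjusted p = 0.0716). With dim signals raised to the level it was -1.11 and did not pass (limma adjusted p = 0.0785). Without si-Elk1 oligo C it was -3.34 and passed (limma adjusted p = 0.0210). It did not pass without oligo A (-1.96, limma adjusted p = 0.142) or without oligo B (-2.15, limma adjusted p = 0.14). The si-Med23 against si-Ctrl value was 0.61 ± 0.67 and did not pass (limma adjusted p = 0.492). Means were 7.95 ± 0.62 in si-Med23, 4.85 ± 1.49 in si-Elk1 and 7.34 ± 0.53 in si-Ctrl (SD, n = 3), and si-Med23 and si-Ctrl again did not differ beyond their spread.

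By the call used here, a limma adjusted p under 0.05, 1 of the 3 genes was lower in si-Elk1 than in si-Ctrl, against 1.19% of all genes tested, and 0 of the 3 passed between si-Med23 and si-Ctrl by limma, where 39.8% of all genes did. Unadjusted p-values of si-Med23 against si-Ctrl were 0.449 for KIRREL3, 0.24 for PCDH7 and 0.39 for PCDH10 by limma, a model fitted across all genes. The si-Elk1 arrays lay below all si-Ctrl arrays for 3 of the 3 genes, as for 15.1% of all genes tested. Those si-Elk1 arrays helped choose the genes, and the si-Elk1 mean of each gene was under the dim level. Each gene thus passed the filter through its si-Med23 and si-Ctrl signals, and the si-Elk1 counts describe the choice. The si-Med23 arrays lay above all si-Ctrl arrays for 1 of the 3, PCDH7, as for 31.7% of all genes. The contrast of si-Med23 with si-Elk1 was the one that chose the genes, and its values are a description. The differences were 3.33 ± 0.42 for KIRREL3, 3.10 ± 0.67 for PCDH10 and 3.03 ± 0.57 for PCDH7 (log2, SE; 3 arrays in each group), and they rest on the same dim si-Elk1 signals. With dim signals raised to the level they were 2.09 for KIRREL3, 1.72 for PCDH10 and 2.14 for PCDH7. In that contrast the arrays did not overlap for 3 of 3 genes, with si-Med23 higher, as for 18.5% of all genes. Both si-Elk1 comparisons use the same si-Elk1 arrays. With arrays scaled to the poly-A spikes, the si-Med23 values against si-Ctrl were -1.94 for KIRREL3 (limma adjusted p = 0.000599), -0.89 for PCDH7 and -1.001 for PCDH10, while the si-Elk1 values stayed negative. The remaining ELK1 signal was highest with oligo C. By the brightest probe sets, that oligo had the highest si-Elk1 signal of KIRREL3 and PCDH10 and the lowest of PCDH7. By PCDH7 probe set 205535_s_at, oligo C was the highest of si-Elk1 too. Most of these signals were dim, so no order over the oligos can be read from them.

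**Figure D2:**
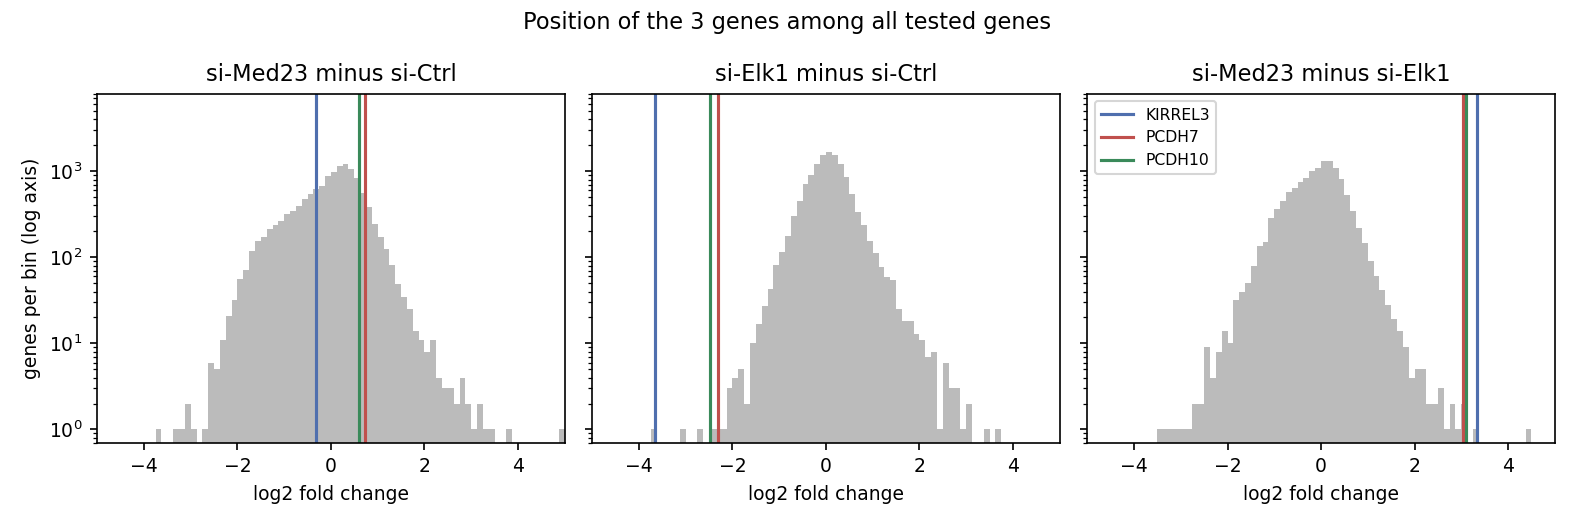
Histograms of the log2 fold changes of all 12616 tested genes in each contrast (log count axis), with a vertical line for each of the 3 genes. The lines lie in the bulk of the si-Med23 against si-Ctrl distribution, in the low tail of si-Elk1 against si-Ctrl and in the high tail of si-Med23 against si-Elk1.

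The other probe sets of PCDH7 and PCDH10 were mostly dim, and they did not all follow the brightest one. Of the 10 probe sets of the 3 genes, 4 had a mean above the dim level. In si-Elk1, 5 of the 10 lay below all si-Ctrl arrays, where 9.11% of all probe sets did. In si-Med23, 1 of the 10 lay above all si-Ctrl arrays, where 15.9% of all probe sets did. In si-Med23, 4 of the 10 lay above all si-Elk1 arrays, where 10.1% of all probe sets did. The knockdown arrays chose the genes, and probe sets of the same gene are not independent. These counts therefore describe the choice and support nothing beyond it.

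PCDH7 probe set 205535_s_at, annotated to the same transcript record as the brightest one, read 5.91, 5.55 and 6.89 with si-Med23 oligos A, B and C. It read 1.89, 3.20 and 4.15 with si-Elk1 oligos A, B and C, and 6.04, 5.41 and 5.27 in si-Ctrl. Its si-Elk1 arrays lay below all others, as with the brightest one, but si-Med23 overlapped si-Ctrl and oligo C was the highest of si-Elk1. By contrast, PCDH7 probe set 210273_at, annotated to another record and with a mean above the dim level, had 6.50, 6.30 and 6.47 in si-Med23, 5.66, 6.29 and 6.62 in si-Elk1, and 6.32, 4.10 and 7.09 in si-Ctrl, with all groups overlapping. The remaining PCDH7 probe sets, 210941_at and 228640_at, were below the dim level on every array and their groups overlapped. Which isoforms of PCDH7 each probe set reads was not analysed here.

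Of the other PCDH10 probe sets, 1556328_at had 0.58, 1.54 and 4.81 in si-Med23, 2.29, 1.20 and 2.49 in si-Elk1, and 4.49, 5.03 and 4.67 in si-Ctrl. Its si-Elk1 arrays lay below all controls, as with the brightest probe set, but 2 of its si-Med23 arrays did too, and all signals were dim. Probe sets 1552925_at and 1556329_a_at were dim on every array and their groups overlapped. When all probe sets of a gene were averaged, the si-Elk1 against si-Ctrl change was -1.08 for PCDH7 and -1.42 for PCDH10. Both were less than the brightest probe sets gave, and neither passed (limma adjusted p = 0.125 and 0.115). KIRREL3 has a single probe set, so no such check was possible for it. Probe sets of KIRREL3-AS2, KIRREL3-AS3 and PCDH10-DT carry other gene symbols and were not counted.

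**Figure D3:**
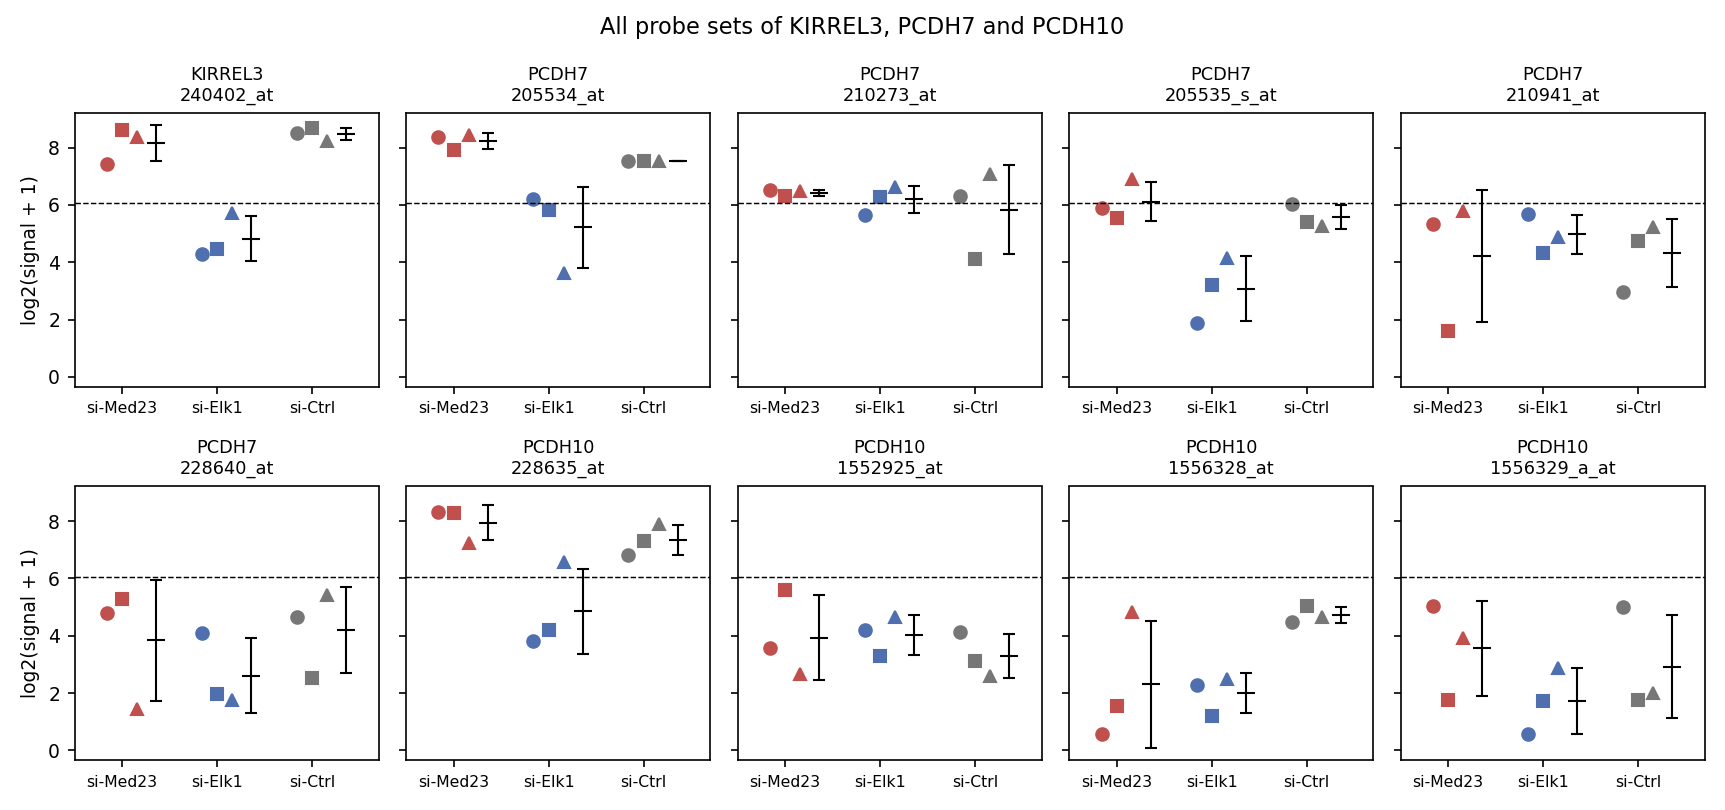
The log2(signal + 1) of all 10 probe sets of KIRREL3, PCDH7 and PCDH10 on each array, with symbols, bars (mean ± SD, n = 3) and the dashed line at 6.05 as in the plot of the brightest probe sets. The si-Elk1 points lie below all si-Ctrl points in 5 panels, and most panels of the second row lie wholly under the line.

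Among genes of the same families and their partners, many passed in si-Med23 and few in si-Elk1, as over all genes. Of 122 such genes 60 were tested, and 4 rose and 1 fell in si-Elk1 against si-Ctrl. Together these are 8.33% of them, beside 4.26% of all genes tested, of which 3.07% rose and 1.19% fell. Their median log2 fold change was 0.02, beside 0.05 for all genes. That count fell when any of the arrays compared was left out. It was 0 without si-Ctrl replicate 1 or 3, 2 without si-Ctrl replicate 2, and 1 without each si-Elk1 oligo in turn. Those fits have fewer arrays and the share of all genes in them is not given, so dependence on particular arrays was not tested. In si-Med23 against si-Ctrl, 18 rose and 8 fell, which is 43.3% beside 39.8% of all genes (20.3% higher and 19.5% lower), with a median of 0.23 beside 0.09. In si-Med23 against si-Elk1, 13 were higher and 6 lower, which is 31.7% beside 21.7% of all genes (9.54% higher and 12.2% lower), and this count ranged from 5 to 25 when single arrays were left out (5 without si-Elk1 oligo A or B, 9 without si-Med23 oligo A, 11 without oligo B and 12 without oligo C). Directions are relative to the common scaling of each array; scaling to the poly-A spikes moved the median of all genes by -1.61 in si-Med23 and by -0.64 in si-Elk1, each against si-Ctrl.

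KIRREL1, a paralog of KIRREL3 and an adhesion protein of podocytes, was also lowest in si-Elk1. Its log2 signals were 9.32, 9.55 and 9.60 in si-Med23, 8.48, 8.29 and 8.52 in si-Elk1, and 8.82, 9.28 and 9.23 in si-Ctrl. Every si-Elk1 array was below every other array, by far less than for KIRREL3. The difference of si-Med23 from si-Elk1 was 1.06 (limma adjusted p = 0.00650), and that of si-Elk1 from si-Ctrl was -0.68 and did not pass (limma adjusted p = 0.0504). Of the 6 genes of the KIRREL and partner list tested, 0 passed in si-Elk1 against si-Ctrl by limma (3 at an unadjusted p under 0.05), and 1 rose and 3 fell in si-Med23 against si-Ctrl. Over all genes tested, 4.26% passed in si-Elk1 and 39.8% in si-Med23, each against si-Ctrl, and the list is short. CASK, a scaffold kinase that can bind the KIRREL3 tail, had a log2 fold change of -0.75 in si-Med23 (limma adjusted p = 0.0158) and of -0.01 in si-Elk1. SYNPO, an actin-binding protein of podocytes, rose by 1.32 in si-Med23 (limma adjusted p = 0.00184), and was at -0.29 with poly-A spike scaling. CD2AP, an adaptor that binds nephrin, fell by 2.03 by its brightest probe set (limma adjusted p = 0.00276), but the mean of its probe sets gave 0.014, so they disagree. TJP1, the junction scaffold ZO-1, had a change of -0.75 in si-Med23 that did not pass (limma adjusted p = 0.0684).

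Of the 7 other delta-protocadherins only PCDH9 and PCDH17 passed the filter on dim genes. PCDH9, a delta-1 relative of PCDH7, had log2 signals of 10.13, 10.71 and 9.58 in si-Med23, 10.84, 10.92 and 9.95 in si-Elk1, and 11.43, 11.24 and 11.53 in si-Ctrl. Both knockdowns lay below all controls, which differs from the order seen for PCDH7, and only the si-Med23 fall passed (-1.26, limma adjusted p = 0.0166). Its si-Elk1 change was -0.83 (limma adjusted p = 0.161). Neither passed in si-Elk1 by limma (1 at an unadjusted p under 0.05). PCDH17, a delta-2 relative of PCDH10, had changes of 0.17 in si-Med23 and 0.62 in si-Elk1, neither of which passed.

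Of 9 other protocadherin-like genes tested, 5 rose and 1 fell in si-Med23 against si-Ctrl, and 1 fell in si-Elk1 against si-Ctrl. The shares of all genes that passed were 39.8% in si-Med23 and 4.26% in si-Elk1, and the list is short. The clustered protocadherin genes PCDHB5 and PCDHB2 rose in si-Med23 by 0.99 (limma adjusted p = 0.00444) and 0.65 (limma adjusted p = 0.00543), though probe sets of this cluster can share near-identical sequence. CELSR2, a cadherin of planar cell polarity, rose by 0.97 (limma adjusted p = 0.0038). With poly-A spike scaling all of these turned negative, to -0.62 for PCDHB5, -0.96 for PCDHB2 and -0.64 for CELSR2. FAT4, a giant cadherin of the Hippo and polarity pathways, fell in both knockdowns, by 1.15 in si-Med23 (limma adjusted p = 0.00237) and by 0.81 in si-Elk1 (limma adjusted p = 0.0304). Its mean was under the dim level in si-Med23 (5.85) and just above it in si-Elk1 (6.19), so these sizes are uncertain. FAT1 and CELSR3 did not pass in any contrast.

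Of 8 cadherins tested, classical ones and others such as CDH17, 2 rose in si-Med23 and 1 in si-Elk1, where 39.8% and 4.26% of all genes passed. CDH1, E-cadherin, rose in both, by 1.19 in si-Med23 (limma adjusted p = 0.00464) and by 1.04 in si-Elk1 (limma adjusted p = 0.0368). CDH2, N-cadherin, rose by 0.84 in si-Med23 (limma adjusted p = 0.0113), with -0.12 in si-Elk1, and the difference of si-Med23 from si-Elk1 was 0.96 (limma adjusted p = 0.0151). With poly-A spike scaling the si-Med23 values turned to -0.42 for CDH1 and -0.77 for CDH2, and the CDH2 difference between the knockdowns to -0.011. CDH17 and CDH22 did not pass in any contrast.

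Of 23 homophilic immunoglobulin adhesion genes tested, 4 rose and 1 fell in si-Med23, and 3 rose in si-Elk1, where 39.8% and 4.26% of all genes passed. SDK2, a sidekick protein known from layer-specific synapses of the mouse retina, had log2 signals of 8.03, 7.18 and 7.89 in si-Med23, 9.10, 9.41 and 9.28 in si-Elk1, and 6.87, 8.12 and 6.93 in si-Ctrl. It was highest in si-Elk1, opposite to KIRREL3, with a rise of 1.96 over si-Ctrl (limma adjusted p = 0.0228). Its paralog SDK1 went the other way between the knockdowns, with 7.23, 6.99 and 7.95 in si-Med23, 5.85, 5.36 and 6.25 in si-Elk1, and 6.82, 6.35 and 6.27 in si-Ctrl. The SDK1 difference of si-Med23 from si-Elk1 was 1.57 (limma adjusted p = 0.0128) and that of SDK2 was -1.57 (limma adjusted p = 0.0192). SDK1 had a si-Elk1 mean of 5.82, under the dim level, so the size of its difference is uncertain. CEACAM1 rose in both knockdowns, by 1.90 in si-Med23 (limma adjusted p = 0.00297) and by 1.39 in si-Elk1 (limma adjusted p = 0.0399). NECTIN2, an adherens junction nectin, rose by 0.54 in si-Med23 (limma adjusted p = 0.0184) and by 0.93 in si-Elk1 (limma adjusted p = 0.0163). With poly-A spike scaling the si-Med23 value of NECTIN2 turned to -1.07. Of the si-Elk1 calls named here, that of CEACAM1 was lost under 12 of 20 alternatives, that of CDH1 under 11 of 20, that of FAT4 under 9 of 20, that of SDK2 under 8 of 21 and that of NECTIN2 under 6 of 21. NRCAM and CNTN1, neuronal adhesion genes that were bright in these cells, did not pass in any contrast.

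Of 12 genes for proteins that delta-protocadherin tails bind or work with, 6 rose and 2 fell in si-Med23, and 0 passed in si-Elk1 by limma (1 at an unadjusted p under 0.05). Among all genes tested, 39.8% passed in si-Med23 (20.3% higher and 19.5% lower) and 4.26% in si-Elk1, and the list is short. NCKAP1, the WAVE complex subunit that PCDH10 binds, had log2 signals of 9.58, 9.98 and 10.47 in si-Med23, 11.94, 11.89 and 10.88 in si-Elk1, and 12.13, 12.24 and 11.91 in si-Ctrl. It fell by 2.08 in si-Med23 (limma adjusted p = 0.00276), with -0.52 in si-Elk1. Of the other subunits of the complex, WASF2 was higher in si-Med23 by 0.63 (limma adjusted p = 0.00519) and CYFIP2 by 0.70 (limma adjusted p = 0.00325). CYFIP1 and BRK1 were each higher by 0.40 (limma adjusted p = 0.032 and 0.0204), and ABI1 had -0.31 and did not pass (limma adjusted p = 0.0595). CYFIP1, BRK1 and ABI1 were named after their values were seen. PPP1CA, a catalytic subunit of protein phosphatase 1, rose by 0.55 in si-Med23 (limma adjusted p = 0.00863). With poly-A spike scaling the rises of WASF2, CYFIP2 and PPP1CA turned to -0.98, -0.92 and -1.06. SET, the phosphatase 2A inhibitor known to bind PCDH7, had log2 changes of -0.18 in si-Med23 and 0.0034 in si-Elk1 and did not pass in any contrast.

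**Figure D4:**
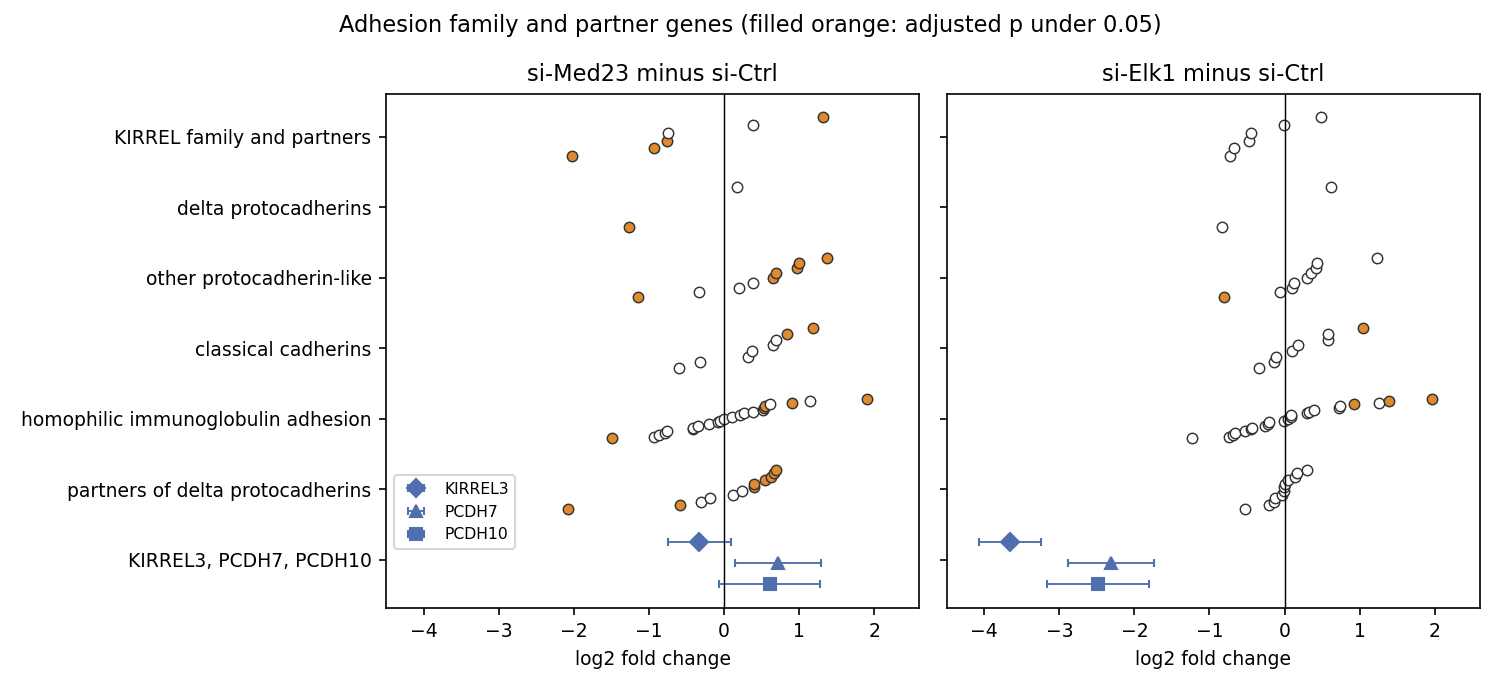
The log2 fold change of each tested gene of the adhesion family and partner lists in si-Med23 (left) and si-Elk1 (right) against si-Ctrl, filled in orange where the adjusted p was under 0.05, with KIRREL3, PCDH7 and PCDH10 in blue below (± SE). In si-Elk1 the 3 genes lie to the left of all other genes drawn, from -2.31 for PCDH7 to -3.66 for KIRREL3.

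The genes whose signals ran most like those of the 3 genes over the 9 arrays had smaller si-Elk1 changes. Hardly any gene could have had a larger fall, since KIRREL3, PCDH10 and PCDH7 ranked 1, 4 and 5 of 12616 from the lowest. The smaller changes therefore describe how the 3 genes were chosen. Likeness was Pearson's r of log2 signal among 12615 other genes, and the points share the 3 groups, the arrays and their scaling. For KIRREL3 the 5 most alike were GPRC5A, SFMBT2, MYO5B, ELOA and CAV2, with r from 0.941 to 0.972. Their si-Elk1 against si-Ctrl log2 changes ran from -0.92 for MYO5B to -0.46 for ELOA. For PCDH7 they were PIGM, SAMD4A, NIPA2, ZNF462 and NKX2-5, with r from 0.932 to 0.970, and ZNF462 had the largest change of these, -1.64. For PCDH10 they were PDCD5, SQSTM1, ATF5, ARHGEF5 and PPP6R1, with r from 0.939 to 0.961, and ATF5 had the largest change, -1.03. None of the 3 genes was among the 5 most alike of another, and r was 0.873 between KIRREL3 and PCDH10, 0.703 between KIRREL3 and PCDH7 and 0.546 between PCDH7 and PCDH10.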

How the data were processed

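Gene expression was measured in 9 A549 samples with 1 Affymetrix array each. Per the labels' protocols, the RNA came from Trizol extracts and was labelled as biotinylated cRNA. The authors deposited 1 linear intensity per probe set and array. RMA and MAS5 stand in the submitters' processing notes, without a role or version. With 2% trimmed from each end, array means all came to about 500, so a change in total messenger RNA is not visible. The build behind the deposited values is not stated in the labels, no detection calls were used, and promoter sequences came from RefSeq (GRCh38.p14).

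Signals were analysed as log2(value + 1). The added 1 lowers fold changes of dim genes. The platform annotation gave 1 gene for 41091 of 54675 probe sets. Each gene was represented by its probe set with the highest mean, and genes with a mean under the median over probe sets (log2 6.05, or 65.4 in linear signal) were dropped, so that 12616 genes were tested. A single limma model (version 3.58.1, R 4.3.3) over the 9 arrays, with eBayes and two-sided tests, gave the differences, and Benjamini-Hochberg adjustment ran across the 12616 genes. The fit was tested on simulated data. The number of arrays limits the precision.

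The genes and lists were chosen with earlier results of these data known. Named genes are the 3 members, MED23 and ELK1, of each list up to 4 with the smallest p and up to 2 brightest that passed in no contrast, and the 5 most alike per member. Alternatives are given in the closing section.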

Additional observations from a re-analysis of the deposited data

Results flagged for a closer look

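The poly-A spike probe sets, bacterial transcripts added to the RNA and outside the gene tests, were higher than in si-Ctrl by 1.61 on the log2 scale in si-Med23 and by 0.639 in si-Elk1. Their mean log2 signals were 9.22 ± 0.12 in si-Med23, 8.25 ± 0.29 in si-Elk1 and 7.61 ± 0.20 in si-Ctrl (SD, n = 3). The groups did not overlap. Scaling to the hybridization controls, a separate set of 18 probe sets, moved values against si-Ctrl the same way but by less. That shift was -0.50 in si-Med23 and -0.18 in si-Elk1.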

How the results depend on the processing

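The si-Elk1 fall of KIRREL3 kept its direction and its call under all 20 alternatives that gave a value, between -4.30 and -2.42. It ran from -4.11 to -3.39 with single arrays left out. Each alternative reuses the si-Elk1 arrays that helped choose the gene, so these values describe the choice and support nothing beyond it. The stricter filter at the 70th percentile left no value for the 3 genes.

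For PCDH7 the si-Elk1 against si-Ctrl change passed with poly-A spike scaling (-2.95), a pseudocount of 16 (-1.84) and dim signals raised to the filter level (-1.42), and ran from -2.80 to -1.51 with single arrays left out. For PCDH10 it passed with poly-A spike scaling (-3.13), was -1.11 with dim signals raised and did not pass, and ran from -3.34 to -1.96 with single arrays left out.

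Against si-Ctrl, si-Med23 values under poly-A spike scaling were -1.94 for KIRREL3, which then passed, -0.89 for PCDH7 and -1.001 for PCDH10, the last 2 with the sign turned. Scaling to the hybridization controls gave -0.83 for KIRREL3, 0.22 for PCDH7 and 0.11 for PCDH10, and none passed. The mean of all probe sets gave -0.13 for PCDH10 and 0.28 for PCDH7, and neither passed. For PCDH7 the value of 0.72 passed with dim signals raised and with only the 6 arrays compared. With single arrays left out the ranges were -0.57 to 0.025 for KIRREL3, 0.63 to 0.88 for PCDH7 and 0.36 to 0.97 for PCDH10.

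The differences of si-Med23 from si-Elk1 stayed positive. KIRREL3, PCDH7 and PCDH10 had 2.09, 2.14 and 1.72 with dim signals raised. Poly-A spike scaling gave 2.36 for KIRREL3 and 2.06 for PCDH7. The mean of all probe sets gave 1.36 for PCDH7 and 1.29 for PCDH10. Single arrays left out gave 3.06 to 3.78, 2.23 to 3.52 and 2.57 to 3.95.

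The counts of family and partner genes called were 26 in si-Med23 and 5 in si-Elk1, each against si-Ctrl, and 19 between the knockdowns. They were 52, 26 and 41 with poly-A spike scaling, which moves every gene by -1.61 in si-Med23 and by -0.64 in si-Elk1 against si-Ctrl. The share of all genes called under each alternative is not given here. The counts in this paragraph therefore cannot be read as a result about these families. The si-Elk1 count was 0 with no filter, 1 with averaged probe sets, 8 with dim signals raised and 0 to 5 with single arrays left out. The count between the knockdowns was 8 with no filter, 11 with averaged probe sets, 8 with only the 6 arrays compared and 5 to 25 with single arrays left out, and the si-Med23 count 18 to 32.

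With the replicate block, the si-Elk1 count was 0 and that between the knockdowns 8, while KIRREL3 kept its call (limma adjusted p = 0.0165). Between groups, correlations of deviations ran from -0.176 to 0.0462 for samples with the same number. They ran from -0.0566 to 0.121 for samples with different numbers. The number goes with the oligo letter in both knockdowns, so these values cannot show whether the samples were paired.

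Of 785 values of named genes under alternatives, 638 kept direction and call, 128 lost the call and 19 turned sign. With hybridization control scaling, 24 of 38 kept both, 14 lost the call and 0 turned sign. Poly-A spike scaling turned the sign of 17 of 38. Under poly-A spike scaling, si-Med23 against si-Ctrl became -0.42 for CDH1, -0.77 for CDH2, -1.07 for NECTIN2, -0.70 for SDK1, -0.92 for CYFIP2, -0.98 for WASF2, -1.06 for PPP1CA, -0.29 for SYNPO, -0.96 for PCDHB2, -0.62 for PCDHB5 and -0.64 for CELSR2. Between the knockdowns it became -0.011 for CDH2, -0.58 for CYFIP2, -0.31 for WASF2, -0.13 for SYNPO, -0.083 for PCDHB5 and -0.35 for CELSR2. The mean of all probe sets gave CD2AP 0.014 against si-Ctrl and 0.23 between the knockdowns. The cause of these changes was not tested. Dim signals limit the sizes given for the 3 genes in si-Elk1.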
